A study of Mus musculus with 8 samples.

Results

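The mitochondrially encoded RNAs of mouse 2-cell embryos are the transcripts of mitochondrial DNA itself, 13 mRNAs, 2 rRNAs and 22 tRNAs. They were taken as every gene whose symbol begins with mt-, 37 of the 38406 gene symbols in the deposited table, and all 37 passed the filter of a mean FPKM (fragments scaled by transcript length and library total) of at least 1. Embryos from outbred CF-1 mice were injected at the early 1-cell stage and grown to the late 2-cell stage. Controls, called Scr-MO, received a scrambled morpholino. The other group, Med13-MO, received morpholinos that, by their label, target the start site of Med13 transcription. Med13 encodes a subunit of the Mediator kinase module. Morpholinos are antisense oligomers that block translation or splicing of their target. Each library came from RNA of 40 pooled embryos, amplified before library construction, and each group had 4 independent collections. In the rows of the mitochondrial genes, the deposited values stand 1 column to the right of their library. After they were moved back, Med13-MO replicate 4 had no value. Every mitochondrial value below therefore rests on 4 Scr-MO and 3 Med13-MO libraries, and sets of values are given in that order, replicate 1 first.

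Mitochondrial DNA is a small circle that is transcribed from both strands as long precursor RNAs. In these precursors tRNAs lie between most of the other genes, and cutting out the tRNAs releases the mRNAs and rRNAs on either side. The mRNAs encode core subunits of complexes I, III and IV of the respiratory chain and of the ATP synthase, the rRNAs build the mitochondrial ribosome, and the tRNAs serve that ribosome alone. The enzymes that transcribe, cut, modify and degrade these RNAs are all encoded in the nucleus. Early embryos use mitochondria inherited from the egg.

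Leucine and serine each have a pair of mitochondrial tRNAs that read different codon boxes, and in each pair 1 member was called lower in Med13-MO and the other was not called. Their sequences are shown 5′ to 3′ for that reason, as the GENCODE M21 transcripts of GRCm38 (the mm10 assembly), with the anticodon in capitals. The leucine tRNA mt-Tl1 (chrM:2676-2750, plus strand) reads UUR codons, and mt-Tl2 (chrM:11671-11741, plus strand) reads CUN codons. The serine tRNA mt-Ts1 (chrM:6870-6938, minus strand) reads UCN codons. The other, mt-Ts2 (chrM:11613-11671, plus strand), reads AGY codons and is, at 59 bases, the shortest of the 22, a tRNA known in mammals to lack the D arm.
mt-Tl1: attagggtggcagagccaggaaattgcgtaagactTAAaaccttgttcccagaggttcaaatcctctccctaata
mt-Tl2: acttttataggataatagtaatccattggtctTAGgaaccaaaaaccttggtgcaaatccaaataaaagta
mt-Ts1: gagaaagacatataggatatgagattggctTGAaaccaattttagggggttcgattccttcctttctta
mt-Ts2: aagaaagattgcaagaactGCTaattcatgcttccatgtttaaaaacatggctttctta

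The 3 tRNAs whose lower level in Med13-MO was called under every setting tried are those for glycine (mt-Tg, chrM:9391-9458, plus strand), arginine (mt-Tr, chrM:9808-9875, plus strand) and glutamate (mt-Te, chrM:14071-14139, minus strand). They are shown in the same way, with the anticodon in capitals.
mt-Tg: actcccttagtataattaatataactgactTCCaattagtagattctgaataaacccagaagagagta
mt-Tr: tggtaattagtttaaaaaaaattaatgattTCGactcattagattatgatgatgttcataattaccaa
mt-Te: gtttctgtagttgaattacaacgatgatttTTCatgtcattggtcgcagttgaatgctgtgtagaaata

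The 8 libraries held 31378977 to 48050262 fragments, as read back from the steps between low values. Med13 mRNA averaged 41.3 ± 4.31 FPKM (SD, n = 4) in Scr-MO and 42.2 ± 2.14 (n = 4) in Med13-MO, a log2 difference of 0.03 with a limma adjusted p of 0.892. A morpholino need not change its target's mRNA level, so this value does not check the labels. Of 12 marker genes of eggs and 2-cell embryos, all 12 were measured and 10 rose in Med13-MO (9.29% of all genes tested in the 8 libraries rose), with a summed level of 621 to 770 FPKM (lowest and highest library) in Scr-MO and 966 to 1046 in Med13-MO. Nuclear noncoding RNAs, 5 of 6 in the table, summed to 54.3 to 115 FPKM in Scr-MO and 24.2 to 57.9 in Med13-MO, and 1 of the 2 tested, Malat1, fell by 1.78 on the log2 scale (limma adjusted p = 0.000521). The part of either list in the values below was not tested. Marker sums of other cells were low in both groups. Cumulus cell markers summed to 11.5 to 16.6 FPKM in Scr-MO and 12.9 to 17.3 in Med13-MO, of which Amhr2 alone averaged at least 1 FPKM, and Foxl2, which defines granulosa cells, was at 0 in 6 libraries. Sperm markers, 5 of 7 in the table, each stayed under 1 FPKM and summed to at most 0.911. Blood and immune markers summed to at most 5.25 FPKM, leaving out Med13-MO replicate 4, where Hba-a1 and Hbb-bs have no value. Oviduct markers summed to at most 6.81 FPKM. The oviduct sums were 4.08 to 6.81 in Scr-MO and 3.02 to 3.45 in Med13-MO, where Ovgp1, the oviduct glycoprotein, fell by 0.48 on the log2 scale (limma adjusted p = 0.044).

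Mitochondrial RNA made up a large share of every library, and its mRNA part was smaller in every Med13-MO library than in any control, while the rRNA parts overlapped. All 37 RNAs together took 7.39, 7.82, 8.36 and 8.08% of fragments in Scr-MO and 8.31, 7.43 and 6.25% in Med13-MO, and the groups overlapped. The mRNAs took 1.48, 1.61, 2.13 and 2.15% in Scr-MO and 1.38, 1.26 and 1.21% in Med13-MO. Every Med13-MO library was below every Scr-MO library, with means of 1.84 ± 0.348% (SD, n = 4) and 1.28 ± 0.0889% (n = 3). The rRNAs took 5.87, 6.18, 6.18 and 5.88% in Scr-MO and 6.90, 6.14 and 5.01% in Med13-MO. Their means, 6.03 ± 0.176% and 6.02 ± 0.950%, were nearly equal, with the wider spread in Med13-MO. Fragments on tRNA genes took 0.0288 to 0.0528% in Scr-MO and 0.0287 to 0.0336% in Med13-MO, and the groups overlapped. The number of rRNA fragments per mRNA fragment was 3.97, 3.85, 2.91 and 2.74 in Scr-MO and 4.99, 4.88 and 4.14 in Med13-MO, so that all 3 Med13-MO libraries stood above all 4 Scr-MO libraries. In pooled embryos, the level of a single RNA does not tell fewer mitochondria from less RNA per mitochondrion. Why the mRNA share was lower while the mean rRNA share was nearly equal was not tested. Summed over the 13 mRNAs, the level was 18245 ± 2939.6 FPKM in Scr-MO and 12590.0 ± 823 in Med13-MO. These sums over members carry no test.

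**Figure D1:**
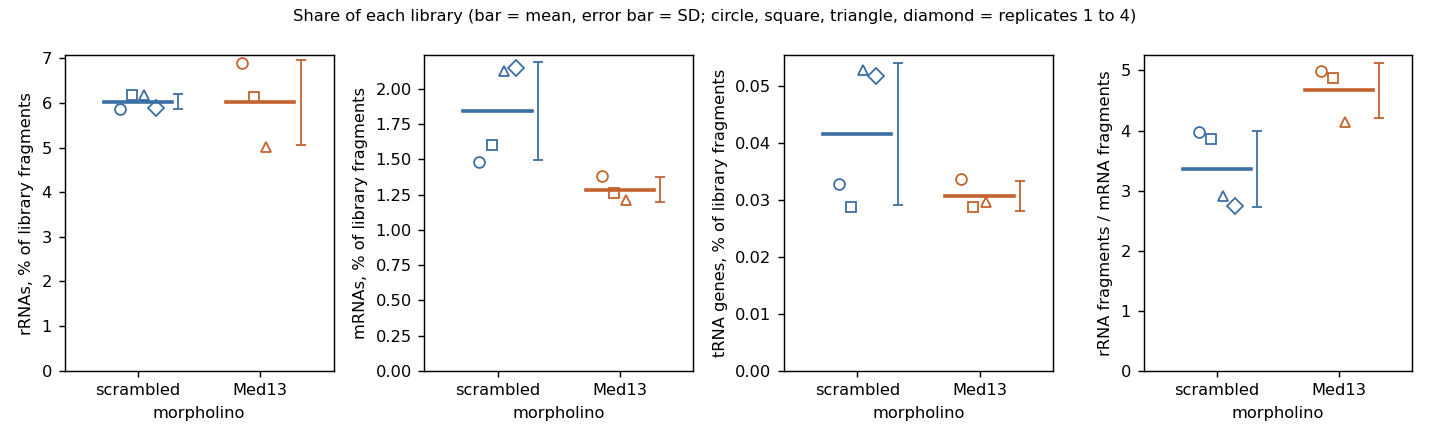
Shares of library fragments on mitochondrial mRNAs, rRNAs and tRNAs (percent, vertical axes from 0) and rRNA fragments per mRNA fragment, 1 point per library, with bars for the group mean and SD (4 Scr-MO, 3 Med13-MO). The mRNA shares of Med13-MO, 1.21 to 1.38%, lie below those of Scr-MO, 1.48 to 2.15%, while the rRNA shares overlap.

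In the fit of these 7 libraries across 12266 genes (limma on log2(FPKM + 1), adjusted p below 0.05), 6 of the 13 mRNAs fell in Med13-MO and 0 rose. Over all genes tested, 8.2% fell and 9.26% rose, 17.5% in all. With FPKM rescaled to the nuclear sum, the calls over all genes divided into 1402 lower and 1000 higher, against 1006 and 1136 as deposited. The 13 differences ran from -1.19 to -0.01 with a median of -0.55, beside a median of -0.10 over all genes. In 8 of the 13 every Med13-MO library was below every Scr-MO library, which was the case for 16.7% of all genes (13.8% the other way). Neither rRNA was called. Of the 22 tRNAs 9 fell and 0 rose, with a median of -0.78. Of all 37 RNAs, which share precursors and libraries, 35 differences were below 0, beside 7257 of the 12266 over all genes. With no filter on low values, which tests many more genes, 2 mRNAs and 3 tRNAs were called: mt-Nd2, mt-Nd4l, mt-Tg, mt-Tr and mt-Te.

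Of the 6 called mRNAs, 5 belong to complex I, the NADH dehydrogenase that feeds electrons into the respiratory chain, which has 7 mitochondrial mRNAs with a median difference of -0.81. The largest difference was that of mt-Nd2 (chrM:3914-4951), one of the membrane subunits of complex I related to ion antiporters. It stood at 979, 1571, 1917 and 1382 FPKM in Scr-MO and at 766, 553 and 568 in Med13-MO, with no overlap. It fell by 1.19 ± 0.23 (SE) on the log2 scale, to 0.438 of the control level (95% interval 0.309 to 0.62, limma adjusted p = 0.00566). The nearby mt-Nd1 (chrM:2751-3707), which shares the same precursor and encodes the subunit next to the quinone site, stood at 1722, 1439.8, 2643 and 2371 FPKM and at 1886, 1752 and 1627, and the groups overlapped. Its difference was -0.18 ± 0.22 (adjusted p = 0.587, ratio 0.883, 95% interval 0.636 to 1.23). Within each library the level of mt-Nd2 was 0.569, 1.09, 0.725 and 0.583 times that of mt-Nd1 in Scr-MO. In Med13-MO it was 0.406, 0.316 and 0.349 times, with no overlap. Ratios between mRNAs, here and below, were set side by side after the single values were known and carry no test.

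The other called complex I mRNAs lie close together on the circle. mt-Nd3 (chrM:9459-9806), which encodes a small membrane subunit with a loop that moves between the active and resting states of the enzyme, stood at 257, 384, 233 and 205 FPKM in Scr-MO and at 161, 113 and 110.4 in Med13-MO. It fell by 1.05 ± 0.23 on the log2 scale (adjusted p = 0.0106). Its level was the lowest of the 13 mRNAs in mean FPKM. mt-Nd4l (chrM:9877-10173), a small subunit near the quinone site, stood at 1208, 1570.1, 1882 and 1797 FPKM in Scr-MO and at 804, 746 and 795 in Med13-MO. It fell by 1.03 ± 0.18, to 0.491 of the control level (95% interval 0.372 to 0.65, adjusted p = 0.00416). The 3 Med13-MO libraries lay close together, well below the lowest control. mt-Nd4 (chrM:10167-11544), an antiporter-like subunit translated from the same mRNA as mt-Nd4l in mammals, stood at 1283, 1515, 1948 and 2111 FPKM and at 969, 935 and 965, and fell by 0.81 ± 0.19 (adjusted p = 0.0154). mt-Nd5 (chrM:11742-13565), the antiporter-like subunit at the far end of the membrane arm, stood at 1621, 1799.6, 2059.9 and 2139.8 FPKM and at 1384, 1174 and 1111, and fell by 0.64 ± 0.17 (adjusted p = 0.0253). In all 4 the groups did not overlap. Without Med13-MO replicate 2, mt-Nd3, mt-Nd4 and mt-Nd5 lost the call (adjusted p up to 0.0591, 0.0722 and 0.115 over the libraries left out in turn). mt-Nd5 also lost it without Scr-MO replicate 3 or 4 or Med13-MO replicate 3, and with median-ratio scaling.

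mt-Nd6 (chrM:13552-14070), a complex I subunit, is the 1 mRNA of the minus strand. It stood at 1209, 1272, 876 and 961 FPKM in Scr-MO and at 994, 871 and 755 in Med13-MO, and the groups overlapped. Its difference was -0.30 ± 0.19 (adjusted p = 0.285, ratio 0.813, 95% interval 0.612 to 1.08). Whether counting used strand is not stated, so reads of mt-Nd6 and of RNA from the opposite strand at the same place cannot be told apart, and the same holds for the 8 tRNA genes of the minus strand. The ratio of mt-Nd6 to mt-Nd5 was 0.746, 0.707, 0.425 and 0.449 in Scr-MO and 0.718, 0.742 and 0.679 in Med13-MO. All 3 Med13-MO values lay within the range of the control values.

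The mRNAs of complex IV, cytochrome c oxidase, were not called. mt-Co1 (chrM:5328-6872), the catalytic subunit, stood at 1781, 1508, 2532 and 2633 FPKM in Scr-MO and at 2109, 1772 and 1574 in Med13-MO, a difference of -0.19 ± 0.22 (adjusted p = 0.575, ratio 0.878, 95% interval 0.628 to 1.23). mt-Co2 (chrM:7013-7696), which takes electrons from cytochrome c, stood at 830.3, 972, 976 and 893 FPKM and at 799.9, 804 and 704. Its groups did not overlap, but the difference of -0.25 ± 0.16 missed the threshold (adjusted p = 0.275, ratio 0.839, 95% interval 0.662 to 1.06). mt-Co3 (chrM:8607-9390), a core subunit that carries no redox centre, had the smallest difference of the 13 at -0.01 ± 0.17 (adjusted p = 0.973). It stood at 403, 466, 338 and 425 FPKM in Scr-MO and at 425, 419 and 366 in Med13-MO, and its interval, 0.77 to 1.28 of the control level, does not reach the reduction measured for mt-Nd2, mt-Nd3 or mt-Nd4l. mt-Nd3 and mt-Co3 are separated on the circle only by mt-Tg. The ratio of mt-Nd3 to mt-Co3 was 0.638, 0.825, 0.689 and 0.482 in Scr-MO and 0.379, 0.269 and 0.302 in Med13-MO, with no overlap. With mt-Nd3 called and mt-Co3 nearly unchanged, this ratio adds no evidence beyond the 2 single values.

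mt-Cytb (chrM:14145-15288), the cytochrome b of complex III and the 1 mitochondrial mRNA of that complex, had the widest spread among the controls of the 13 mRNAs. It stood at 1509.8, 1563, 2718 and 3193 FPKM in Scr-MO and at 1272, 1462 and 1634 in Med13-MO, and the groups overlapped. The difference was -0.55 ± 0.26 (adjusted p = 0.166, ratio 0.681, 95% interval 0.457 to 1.02).

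The ATP synthase mRNAs share 43 bases (chrM:7927-7969), 21.1% of mt-Atp8 and 6.31% of mt-Atp6, so a fragment there can be given to either. The end of mt-Atp8 and the start of mt-Atp6 are shown because both values rest in part on it, with the shared bases in capitals (chrM:7902-7994, plus strand). The overlap of mt-Nd4l and mt-Nd4, 7 bases, is shown in the same way (chrM:10142-10198, plus strand).
mt-Atp8 into mt-Atp6: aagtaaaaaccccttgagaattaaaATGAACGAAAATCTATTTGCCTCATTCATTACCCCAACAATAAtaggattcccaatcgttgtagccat
mt-Nd4l into mt-Nd4: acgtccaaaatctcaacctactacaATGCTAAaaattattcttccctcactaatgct

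mt-Atp8 (chrM:7766-7969), a small membrane subunit of the synthase, stood at 819.7, 1249, 1184 and 984 FPKM in Scr-MO and at 746, 643 and 603 in Med13-MO, with no overlap. It fell by 0.66 ± 0.19 on the log2 scale (adjusted p = 0.0321, ratio 0.634, 95% interval 0.477 to 0.842). Leaving out Scr-MO replicate 2, 3 or 4 or Med13-MO replicate 2 or 3 ended the call (adjusted p up to 0.125), as did median-ratio scaling. mt-Atp6 (chrM:7927-8607), the subunit that forms part of the proton channel, stood at 1183, 1481, 1489.7 and 1488 FPKM and at 1179, 1141 and 1075. Its groups did not overlap, although the highest Med13-MO library lay just under the lowest control, and the difference of -0.31 ± 0.16 was not called (adjusted p = 0.199, ratio 0.806, 95% interval 0.631 to 1.03). The level of mt-Atp6 was 1.44, 1.19, 1.26 and 1.51 times that of mt-Atp8 in Scr-MO and 1.58, 1.77 and 1.78 times in Med13-MO. The level of mt-Nd4 was 1.06, 0.965, 1.04 and 1.17 times that of mt-Nd4l in Scr-MO and 1.20, 1.25 and 1.21 times in Med13-MO. In both pairs, which mammals translate from 1 shared mRNA, the ratio was higher in every Med13-MO library than in any control. The 2 members of such a pair are not independent readings, and why their ratio differed was not tested.

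**Figure D2:**
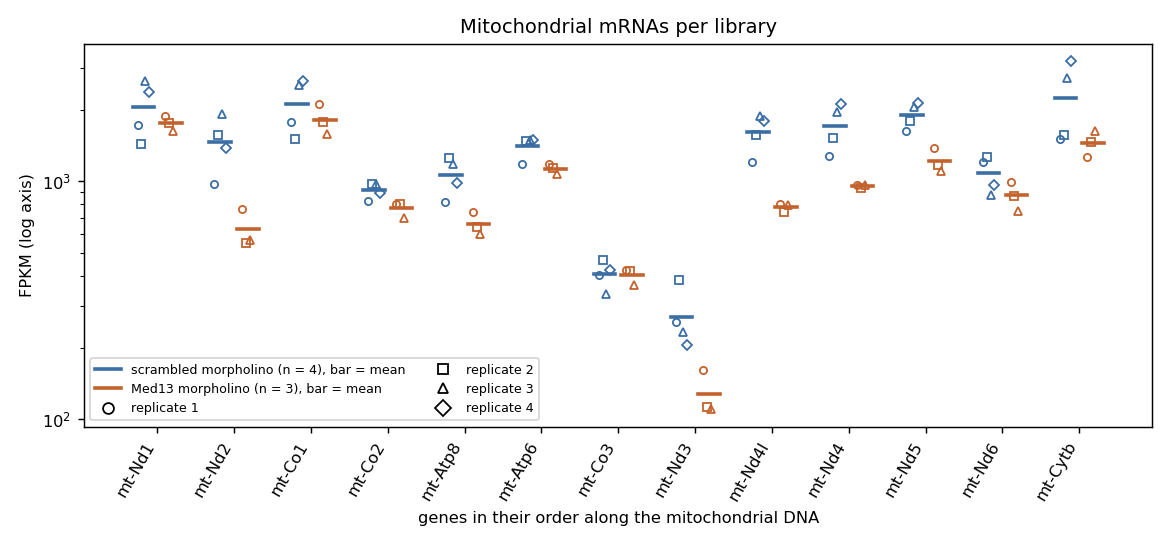
Level of each mitochondrial mRNA (FPKM, log axis) in each library, in order along the circle, with points for 4 Scr-MO and 3 Med13-MO libraries and bars for the group means. The groups are apart for mt-Nd2, mt-Nd3, mt-Nd4l, mt-Nd4, mt-Nd5, mt-Atp8, mt-Co2 and mt-Atp6, and the means of mt-Co3, 408 and 403 FPKM, nearly coincide.

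The rRNAs were the 2 most abundant of the 38406 symbols in mean FPKM over the 7 libraries. mt-Rnr1 (chrM:70-1024), the RNA of the small mitochondrial ribosomal subunit, stood at 18491, 18181, 20175 and 20807 FPKM in Scr-MO and at 20372, 18119.8 and 17749 in Med13-MO. Its difference was -0.05 ± 0.16 (limma adjusted p = 0.843), and its ratio of 0.965 had a 95% interval of 0.763 to 1.22. mt-Rnr2 (chrM:1094-2675), the RNA of the large subunit, stood at 25962, 28103, 26905 and 24624 FPKM and at 31308, 27879.5 and 20954, with the highest and the lowest library both in Med13-MO. Its ratio was 0.999 with a 95% interval of 0.764 to 1.31 (adjusted p = 0.998). For both rRNAs the groups overlapped, and neither interval reaches the ratio measured for mt-Nd2. The level of mt-Rnr2 was 1.40, 1.55, 1.33 and 1.18 times that of mt-Rnr1 in Scr-MO and 1.54, 1.54 and 1.18 times in Med13-MO. Among mRNAs and tRNAs, 11 mRNAs and 2 tRNAs ranked in the top 50 symbols, and all 13 mRNAs in the top 200.

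The tRNA genes are 59 to 75 bases long, shorter than the fragments of a usual library, so a fragment on them may come from a precursor or from a neighbouring RNA as well as from a mature tRNA. Their mean levels ran from 8.17 FPKM for mt-Tw to 2157 FPKM for mt-Tl1, and a library held between 10 fragments (mt-Ta) and 10237.5 fragments (mt-Tl1) of a given tRNA. The 9 that fell carry isoleucine, lysine, glycine, arginine, histidine, serine, leucine, glutamate and threonine. For 11 of the 22, all Med13-MO libraries were below all controls, as for 16.7% of all genes tested. Of the 22 differences 20 were below 0, beside 7257 of the 12266 over all genes. Of the 14 tRNAs on the plus strand 8 were called, with a median of -0.76 over the 14. Of the 8 on the minus strand mt-Te alone was called, with a median of -0.79 over the 8.

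The glycine, arginine and glutamate tRNAs printed above kept the call in every setting. mt-Tg stood at 91.9, 121, 92.6 and 109 FPKM in Scr-MO and at 56.3, 61.5 and 54.8 in Med13-MO, and fell by 0.83 ± 0.17 (adjusted p = 0.0067). mt-Tr stood at 409.8, 541, 447 and 515 FPKM and at 274, 213 and 188, and fell by 1.09 ± 0.18 (adjusted p = 0.00305), the smallest p of the 37 RNAs. mt-Te stood at 149, 128, 183 and 194 FPKM and at 97.1, 63.6 and 61.4, and fell by 1.15 ± 0.21 (adjusted p = 0.00474). In each of the 3 the Med13-MO libraries stood apart below the controls.

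Of the leucine pair, mt-Tl2 fell and mt-Tl1 was not called. mt-Tl2 stood at 27.7, 32.9, 67.0 and 56.7 FPKM in Scr-MO and at 20.1, 19.5 and 14.4 in Med13-MO, a fall of 1.23 ± 0.28 (adjusted p = 0.0131) that was not called without Med13-MO replicate 3 (adjusted p = 0.0547). mt-Tl1 stood at 1843, 1289, 2841 and 2792 FPKM and at 2212, 1946 and 2174, with overlap, and its ratio was 1.01 (95% interval 0.685 to 1.49, adjusted p = 0.971). mt-Tl1 follows mt-Rnr2 directly on the circle and is far more abundant than mt-Tl2. The ratio of mt-Tl2 to mt-Tl1 was 0.0150, 0.0255, 0.0236 and 0.0203 in Scr-MO and 0.00910, 0.0100 and 0.00661 in Med13-MO, with no overlap.

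Of the serine pair, mt-Ts2 fell and mt-Ts1 was not called. mt-Ts2 stood at 39.6, 57.6, 83.8 and 82.1 FPKM in Scr-MO and at 40.8, 28.2 and 20.3 in Med13-MO, and fell by 1.11 ± 0.29 (adjusted p = 0.0211), although its lowest control lay just under its highest Med13-MO library. mt-Ts1 stood at 136, 218, 148 and 144 FPKM and at 186, 163 and 155, a ratio of 1.06 (95% interval 0.789 to 1.41, adjusted p = 0.8). The ratio of mt-Ts2 to mt-Ts1 was 0.291, 0.264, 0.566 and 0.569 in Scr-MO and 0.219, 0.172 and 0.131 in Med13-MO, with no overlap. These ratios were set side by side after the values of the single tRNAs were known and carry no test.

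The other 4 called tRNAs changed by similar amounts. mt-Ti, the isoleucine tRNA, stood at 236, 210.3, 244 and 228 FPKM in Scr-MO and at 177, 113 and 118 in Med13-MO, and fell by 0.78 ± 0.19 (adjusted p = 0.0156). mt-Tk, the lysine tRNA, stood at 144, 159, 297 and 333 FPKM and at 113, 117 and 84.8, and fell by 1.06 ± 0.29 (adjusted p = 0.0261). mt-Th, the histidine tRNA, stood at 59.8, 74.8, 105 and 116 FPKM and at 57.7, 34.7 and 37.1, and fell by 1.01 ± 0.25 (adjusted p = 0.0187). mt-Tt, the threonine tRNA, stood at 28.1, 27.4, 39.8 and 41.4 FPKM and at 23.1, 18.1 and 18.1, and fell by 0.75 ± 0.20 (adjusted p = 0.0237). None of the 4 had overlapping groups, though the highest Med13-MO library of mt-Th lay just under its lowest control. The calls of mt-Ti, mt-Th and mt-Ts2 ended without Med13-MO replicate 2 or 3 (adjusted p up to 0.0981, 0.0960 and 0.0862). Those of mt-Tk and mt-Tt also ended without Scr-MO replicate 3 or 4, and that of mt-Tk without Med13-MO replicate 1 or with quantile normalization (up to 0.0945 for mt-Tk and 0.109 for mt-Tt).

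The remaining tRNAs that were not called had differences of -0.91 to -0.42. mt-Tv (valine), mt-Tm (methionine) and mt-Td (aspartate) had groups that did not overlap, with differences of -0.74 (adjusted p = 0.0618), -0.72 (adjusted p = 0.116) and -0.45 (adjusted p = 0.0831). mt-Tq (glutamine) at -0.54, mt-Tp (proline) at -0.80 and mt-Tf (phenylalanine) at -0.42 had adjusted p values of 0.0668, 0.0729 and 0.412. The tRNAs for alanine, asparagine, cysteine and tyrosine form a cluster on the minus strand beside mt-Tw, the tryptophan tRNA. The differences of mt-Ta, mt-Tn, mt-Tc, mt-Ty and mt-Tw ran from -0.91 to -0.72, with adjusted p values of 0.0663 to 0.313. In these 5 the controls alone spread widely, as in mt-Tn at 11.4, 8.19, 41.8 and 37.2 FPKM in Scr-MO against 14.9, 7.57 and 13.7 in Med13-MO.

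**Figure D3:**
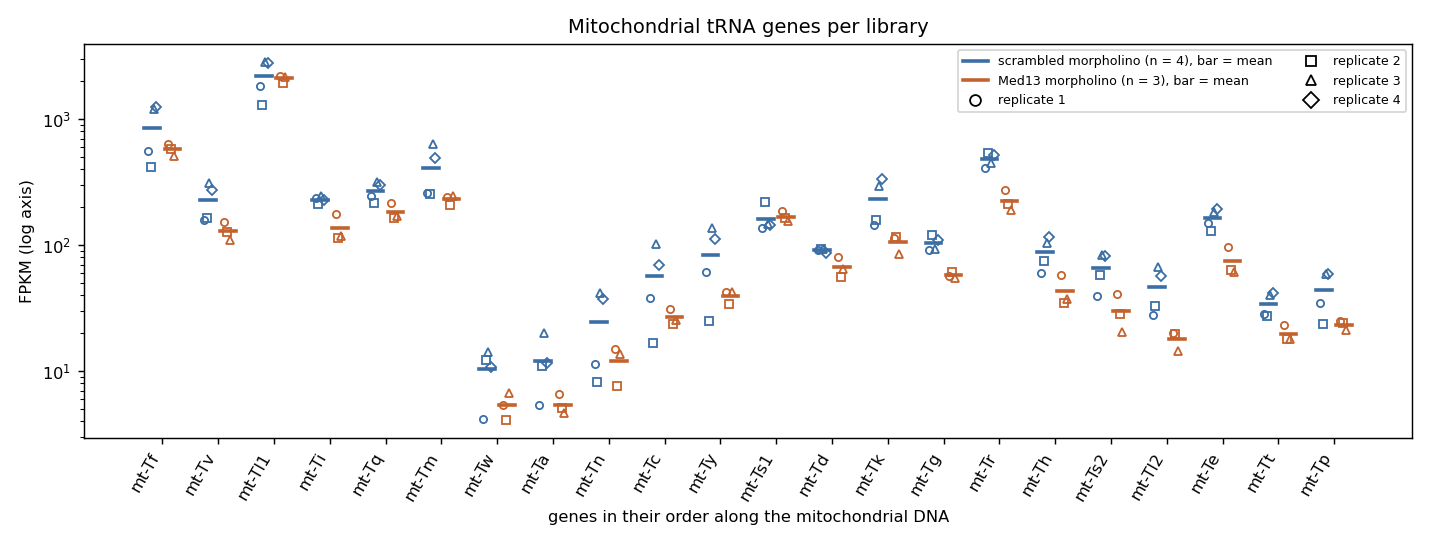
Level of each mitochondrial tRNA (FPKM, log axis) in each of 4 Scr-MO and 3 Med13-MO libraries, in order along the circle, 1 point per library. The 9 called tRNAs have Med13-MO points below the controls except for the overlap of 1 library in mt-Ts2, while mt-Tl1 and mt-Ts1 have mixed points.

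Along the circle, from mt-Tg to mt-Nd5 (chrM:9391-13565, 4175 bases) 9 adjacent genes were called, 4 mRNAs and 5 tRNAs, with differences of -1.23 to -0.64 and a median of -1.03. They are, in order, mt-Tg, mt-Nd3, mt-Tr, mt-Nd4l, mt-Nd4, mt-Th, mt-Ts2, mt-Tl2 and mt-Nd5. The stretch was picked out after its values were seen, and it rests in part on single libraries. Of the 9, 5 (mt-Nd3, mt-Nd4, mt-Th, mt-Ts2 and mt-Nd5) were not called without Med13-MO replicate 2. Without Med13-MO replicate 3, mt-Th, mt-Ts2, mt-Tl2 and mt-Nd5 were not called. Only mt-Tg, mt-Tr and mt-Nd4l kept the call with each library left out in turn. The stretch begins directly after mt-Co3, whose difference was -0.01, and ends before mt-Nd6, whose difference was -0.30. The other called genes were mt-Ti, mt-Nd2, the neighbours mt-Tk and mt-Atp8, mt-Te and mt-Tt. The first 6 genes after the control region, mt-Tf to mt-Nd1 with both rRNAs among them, held 0 called genes, with differences of -0.74 to 0.02. A called gene lay next to 6 of the 9 called tRNAs and next to 4 of the 13 others.

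Simple gene features were set beside the differences as a description, across genes that share their precursors and libraries. Over the 22 tRNAs, Spearman's rho between the log2 difference and the start position was -0.64, with more negative values at higher positions, and it was 0.39 with length, 0.35 with GC content and 0.30 with level. Over the 13 mRNAs it was -0.21 with position, 0.20 with length, 0.41 with GC content and 0.20 with level.

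**Figure D4:**
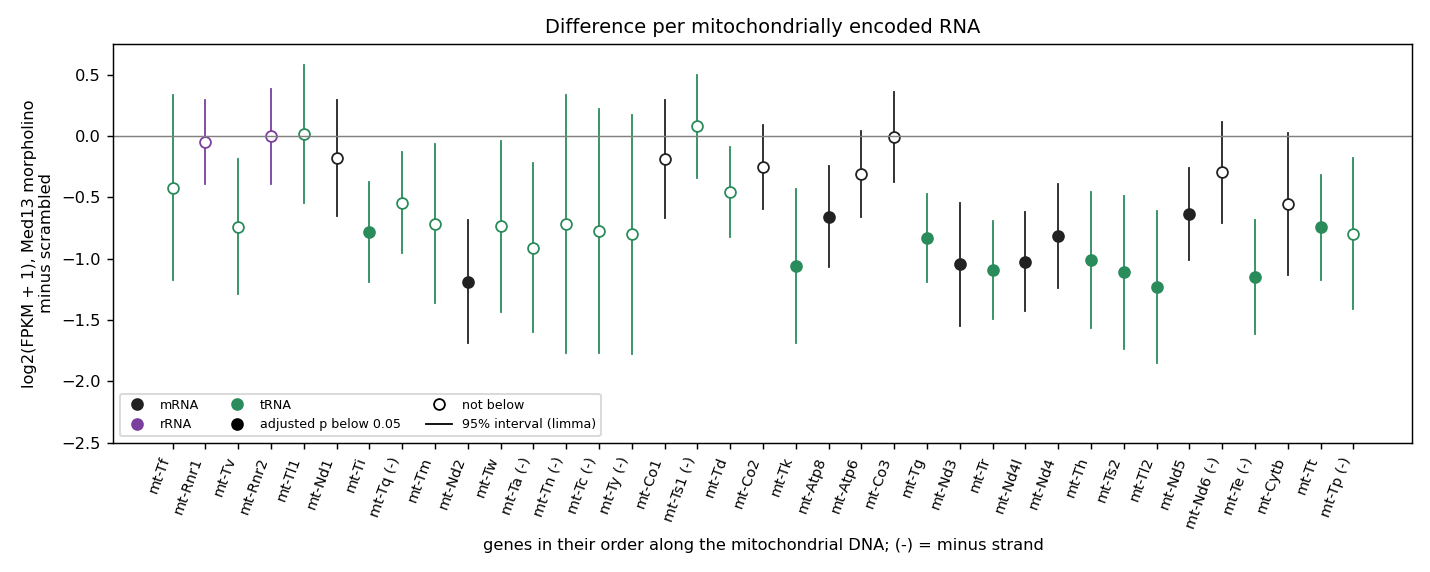
Log2 difference, Med13-MO minus Scr-MO on the log2(FPKM + 1) scale, with its 95% interval for each of the 37 RNAs in their order along the circle, coloured by class, with called genes (limma adjusted p below 0.05) as filled points. The 9 genes from mt-Tg to mt-Nd5 lie between -1.23 and -0.64, and both rRNAs and mt-Co3 lie near 0.

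The controls themselves fell into pairs for many of these RNAs. Scr-MO replicates 3 and 4 were both above replicates 1 and 2 for 7 of 13 mRNAs and 16 of 22 tRNAs, and 40.2% of all genes tested showed this order. mt-Cytb, at 2718 and 3193 FPKM against 1509.8 and 1563, is an example among mRNAs. The reverse order held for mt-Nd3 and mt-Nd6 and for 14.7% of all genes. Of the 5 RNAs called in every setting, mt-Nd2, mt-Tg and mt-Tr followed neither order. The others, mt-Nd4l and mt-Te, had replicates 3 and 4 above replicates 1 and 2. So did mt-Nd4, mt-Nd5, mt-Tk, mt-Th, mt-Ts2, mt-Tl2 and mt-Tt among the called RNAs, while mt-Ti and mt-Atp8 followed neither order.

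The nuclear genes that make and maintain mitochondrial RNA were taken from 7 lists of 69 genes. Their rows are not displaced, so all 8 libraries were used. Of the 69, 52 reached a mean of 1 FPKM, of which 3 rose and 7 fell. Over the 11755 genes of that fit, 9.29% rose and 7.81% fell, 17.1% in all, beside which 10 of 52 is a share of similar size. The median difference was -0.05 for the 52 and -0.06 for all genes. With no filter on low values, Trnt1 alone of the 10 was called.

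Of 9 genes for mitochondrial transcription 6 were tested and 2 fell. Tfam, which packages mitochondrial DNA and opens its promoters, stood at 2.70, 1.96, 2.51 and 1.78 FPKM in Scr-MO and at 0.524, 0.984, 1.29 and 1.57 in Med13-MO, with no overlap. It fell by 0.65 ± 0.18 on the log2 scale (limma adjusted p = 0.0283). At levels this low the added 1 FPKM makes the log2 scale understate the difference, and the means were 2.24 ± 0.437 (SD, n = 4) and 1.09 ± 0.449 (n = 4). Mterf3, which binds near the promoters and acts in ribosome assembly, stood at 16.5, 16.9, 22.7 and 22.1 FPKM and at 10.9, 13.5, 13.7 and 13.02, and fell by 0.56 ± 0.16 (adjusted p = 0.0326). Polrmt, the mitochondrial RNA polymerase, was not called (-0.27, adjusted p = 0.522). The initiation factor Tfb2m (-0.41, adjusted p = 0.169) and the elongation factor Tefm (-0.41, adjusted p = 0.16) were not called either. The call of Tfam ended without Scr-MO replicate 1 or 3 or Med13-MO replicate 1 or 2 (adjusted p up to 0.0798). That of Mterf3 ended without Scr-MO replicate 3 or 4 or Med13-MO replicate 1, 2 or 3 (up to 0.107).

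Of 14 genes for RNA processing 12 were tested, 1 rose and 2 fell. Elac2, the enzyme that cuts tRNAs free at their 3′ end, stood at 4.90, 3.55, 7.32 and 8.03 FPKM in Scr-MO and at 2.47, 2.87, 3.28 and 4.06 in Med13-MO. It fell by 0.70 ± 0.22 (adjusted p = 0.0455), with 1 control inside the Med13-MO range. Fastkd3, a FASTK family RNA-binding protein of mitochondria, averaged 12.0 ± 2.89 and 7.31 ± 0.962 FPKM and fell by 0.62 (adjusted p = 0.0372). Angel2, a phosphatase acting on RNA 2′,3′ ends, averaged 18.5 ± 3.97 and 29.0 ± 6.61 FPKM and rose by 0.62 (adjusted p = 0.0446). All 3 calls rest on single libraries. Those of Elac2 and Fastkd3 ended without Scr-MO replicate 1, 3 or 4 or Med13-MO replicate 1, 2 or 3 (adjusted p up to 0.122 and 0.113). That of Angel2 ended without Scr-MO replicate 2, 3 or 4 or any Med13-MO library (up to 0.123).

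Among 5 genes for stability and decay, 4 were tested and 0 were called. The 2 with the smallest p were the partners that coat and stabilise mitochondrial mRNA, Slirp at 0.38 (adjusted p = 0.0816) and Lrpprc at -0.28 (adjusted p = 0.295). By unadjusted p below 0.05, 1 of the 4 passed. Of 9 genes for rRNA modification 6 were tested, and Nsun4, an rRNA methyltransferase that also helps join the ribosomal subunits, rose from 2.46 ± 0.743 to 4.71 ± 0.331 FPKM (0.75 on the log2 scale, adjusted p = 0.0152). Next by p was Mettl17, a factor in assembly of the mitochondrial ribosome, at 0.30 (adjusted p = 0.212).

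Of 12 genes for tRNA modification 11 were tested, 1 rose and 1 fell. Trmt5, a tRNA methyltransferase, averaged 3.02 ± 1.07 and 6.56 ± 1.26 FPKM and rose by 0.94 (adjusted p = 0.0135), a call that ended without Med13-MO replicate 2 (adjusted p = 0.051). Trnt1, which adds the CCA end to cytosolic and mitochondrial tRNAs, stood at 33.2, 38.3, 40.6 and 29.4 FPKM in Scr-MO and at 18.6, 21.9, 24.1 and 23.7 in Med13-MO, with no overlap. It fell by 0.65 ± 0.16 (adjusted p = 0.0177), a call that ended without Scr-MO replicate 3 or Med13-MO replicate 2 (adjusted p up to 0.0631).

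Of 14 genes for replication of mitochondrial DNA 10 were tested and 2 fell. Polg2, the accessory subunit of the mitochondrial DNA polymerase, averaged 4.63 ± 0.753 and 2.94 ± 0.384 FPKM and fell by 0.51 (adjusted p = 0.0383). Lig3, the DNA ligase of mitochondria, averaged 7.16 ± 1.78 and 4.28 ± 0.663 FPKM and fell by 0.61 (adjusted p = 0.0356). The call of Polg2 ended without Scr-MO replicate 2 or 3 or any Med13-MO library (adjusted p up to 0.114), and that of Lig3 without Scr-MO replicate 3 or 4 or Med13-MO replicate 1, 2 or 3 (up to 0.112). Of 6 nuclear regulators of mitochondrial genes 3 were tested and 0 were called. Gabpa, an ETS family transcription factor, averaged 93.6 ± 10.4 and 71.9 ± 7.09 FPKM, a difference of -0.37 (adjusted p = 0.111), and 1 of the 3 had an unadjusted p below 0.05. Nrf1, a transcription factor of respiratory chain genes, had a difference of -0.27 (adjusted p = 0.386).

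**Figure D5:**
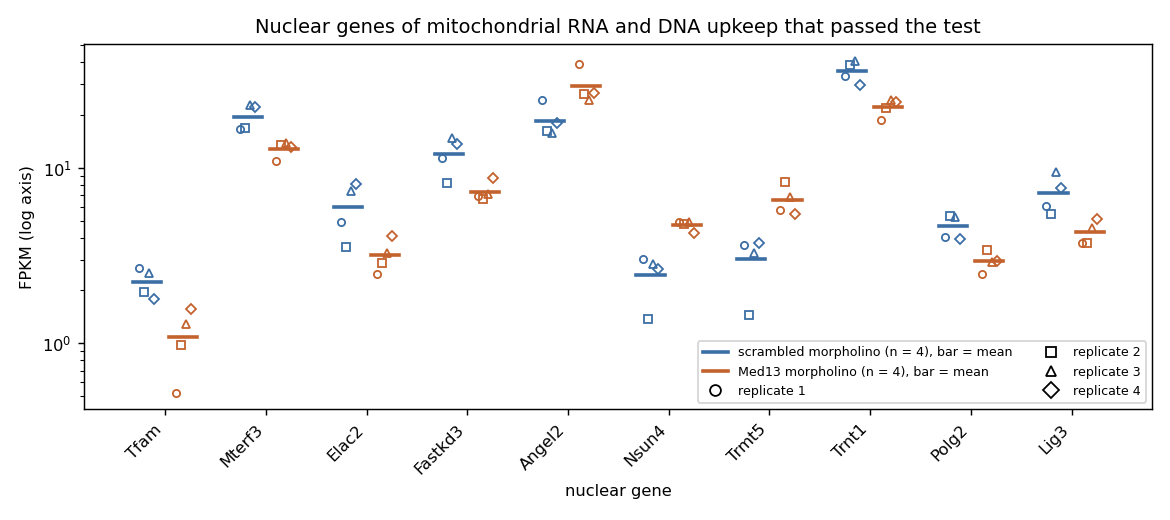
Level (FPKM, log axis) in each of 4 Scr-MO and 4 Med13-MO libraries for the 10 called nuclear genes of mitochondrial RNA and DNA upkeep, 1 point per library, with bars for the group means. Trnt1, Mterf3, Tfam, Polg2 and Lig3 are lower and Nsun4 and Trmt5 higher in every Med13-MO library, while Elac2, Fastkd3 and Angel2 overlap in 1 or more libraries.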

How the data were processed

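The authors deposited 1 table of FPKM values, 97496 transcript rows with gene symbols. Per the submitters' processing notes, BWA and mm10 were used. Of the counting tool, the BWA version, strand use and the annotation release, none is given in the sources used. In the 3758 rows with a hyphenated symbol, the deposited values stand 1 column to the right, with text in place of an FPKM value in the first column. They were moved left. Multiplied by transcript length and library total, all 259 mitochondrial values then fell on steps of 0.5 fragments (within 0.005), against 3 in the headed columns, where the headed library exists. 0 value columns were left unmatched. Rows were summed per symbol, and 96224 matched GENCODE M21 transcripts.

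Genes averaging at least 1 FPKM entered limma 3.58.1 (R 4.3.3) on the log2(FPKM + 1) scale, with two-sided moderated statistics, a mean-variance trend and Benjamini-Hochberg adjustment over all genes, called at 0.05, on 7 libraries for mitochondrial rows and 8 for nuclear genes. Intervals are at 95%. Fold changes on that scale understate changes of low genes. The scripts were tested on simulated data. P-values set the group difference against the moderated spread between libraries, each from its own collection. Named were all mitochondrial RNAs and, of each nuclear list, called genes, filled to 2 by smallest p. Polrmt, Tfb2m and Tefm were named after their values were seen. Members and lists were chosen with earlier results of these data known. How fragments shared with nuclear copies of mitochondrial DNA were assigned is not stated, and amplified fragments without molecular identifiers are not independent molecules. Alternatives were other pseudocounts, filters, scalings, weights, a block of consecutive library numbers and left-out libraries.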

Additional observations from a re-analysis of the deposited data

Results flagged for a closer look

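In each group of 4 libraries the highest or lowest value was compared with its nearest neighbour by Dixon's criterion, which chance exceeds in about 1 in 20 groups. Of 61 groups looked at, 3 were flagged. In mt-Ts1, Scr-MO replicate 2 stood at 218 FPKM, and its gap to the next library was 0.854 of the range of the 4 controls. Without it the log2 difference of mt-Ts1 was 0.23, still not called. In mt-Atp6, Scr-MO replicate 1 stood at 1183 FPKM, below 3 controls that lay close together, with a gap of 0.972 of the range. Without it the difference was -0.39, not called. In Angel2, Med13-MO replicate 1 stood at 38.8 FPKM, with a gap of 0.836 of the range. Without it the difference was 0.47 and no longer called.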

How the results depend on the processing

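The titles give library numbers, and the replicates are numbered here in that order within each group. Equal replicate numbers in Scr-MO and Med13-MO do not by themselves mark pairs. As a setting chosen after seeing the data, libraries with consecutive numbers in their titles were paired in a replicate block. It called 4 mRNAs (not mt-Atp8 or mt-Nd5, adjusted p 0.0512 and 0.0817), 9 tRNAs, 0 rRNAs, 10 nuclear genes and 2409 genes in all, and turned mt-Co3 to 0.0139. For the mitochondrial RNAs Scr-MO replicate 4 had no partner in this block. Their differences therefore equal those without Scr-MO replicate 4, as for mt-Co3 at 0.0139 in both settings. Deviations from the group means correlated within these pairs by 0.378, 0.141, 0.00851 and 0.186 over 11755 genes, and not every library correlated best with its partner. The highest correlation between the groups, 0.465, was that of Scr-MO replicate 3 with Med13-MO replicate 4, which are not partners. In every setting tried, mt-Nd2, mt-Nd4l, mt-Tg, mt-Tr and mt-Te, 5 of the 15 called mitochondrial RNAs, were called lower and 0 mitochondrial RNAs were called higher; 0 of the 10 nuclear genes were called throughout. With no filter, 2 mRNAs, 3 tRNAs, 1 nuclear gene and 1026 genes in all were called, with many more low genes tested. With a mean of at least 5 FPKM, 5 nuclear genes and 1332 genes were called. With sample weights, 20 tRNAs, 17 nuclear genes and 5537 genes were called, and 9 mRNAs. Leaving out each library in turn gave 2 to 6 mRNAs (2 without Med13-MO replicate 2), 3 to 15 tRNAs (3 without Med13-MO replicate 3, 4 without Med13-MO replicate 2, 15 without Scr-MO replicate 2), 0 rRNAs, 1 to 8 nuclear genes (1 without Med13-MO replicate 2) and 831 to 3125 genes in all. Differences near 0 changed sign. With median-ratio scaling, mt-Rnr1 was 0.0186, mt-Rnr2 0.0683 and mt-Co3 0.0596. With sample weights, mt-Rnr2 was 0.0621, mt-Co3 0.0961 and mt-Tl1 -0.31. mt-Tl1 was -0.40 with quantile normalization and -0.0531 with nuclear scaling. With libraries left out in turn, mt-Rnr2 ranged from -0.126 to 0.164, mt-Co3 from -0.0971 to 0.0595 and mt-Tl1 from -0.21 to 0.165. Quantile normalization ties both rRNAs at the top ranks. mt-Atp6 and mt-Co1 were called lower with weights, and mt-Cytb with weights and with quantile normalization. The causes were not tested.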
